A study of Homo sapiens with 12 samples.

Results

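The genes described here are 10 that move, store, release or sense iron: TFRC, TFR2, SLC11A2, STEAP3, FTH1, FTL, NCOA4, SLC40A1, ACO1 and IREB2. They were taken by symbol from a table of RNA-seq counts that held 28278 genes, and all 10 were present, each in 1 line. All 10 also passed the filter on low counts, which left 15805 genes for testing. The cells were K562, an erythroleukemia line that can be driven toward red cell features. In the knockout (KO) line the heme transporter gene HRG1, also named SLC48A1, was disrupted, and in WT it was intact. Each line was left untreated or given 0.75 mM sodium butyrate 24 h after plating and again 48 h later, with harvest 6 h after that. The series places the samples at day 8 of differentiation. This gave 4 groups of 3 libraries: untreated WT, butyrate-treated WT, untreated KO and butyrate-treated KO. How the knockout was made and how many clones the KO line holds are not given in the sources used here, so a difference between WT and KO and a difference between 2 cell lines or clones cannot be told apart. Nothing in the labels says whether the 3 libraries of a group came from separate cultures, so the p-values measure only the spread between these libraries, which may be technical.

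Red cell precursors take up most of their iron bound to transferrin. The transferrin receptor encoded by TFRC carries it into endosomes, where STEAP3 reduces it and SLC11A2 (DMT1) passes it to the cytosol. Iron that is not used for heme or iron-sulfur clusters is stored in ferritin, a shell of heavy (FTH1) and light (FTL) chains, from which NCOA4 releases it by directing ferritin to lysosomes. SLC40A1 (ferroportin) is the exporter of iron from cells. ACO1 and IREB2 encode the iron regulatory proteins IRP1 and IRP2, which in low iron bind hairpins in messenger RNA called iron-responsive elements. Bound in a 5′ untranslated region they block translation, as in ferritin, and bound in the 3′ untranslated region of TFRC they protect the mRNA from decay. HRG1 moves heme, the other form in which iron travels, out of lysosomal compartments.

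The hairpins are shown because they are the feature by which some of the 10 mRNAs are known to be read as a group. Human transcripts of GENCODE v29 (GRCh38) were searched for an unpaired C, 5 paired bases (Watson-Crick or G-T), a loop of 6 bases CAGTGN and 5 paired bases on the other side. The printed windows have 27 bases, 5′ to 3′ in the sense of the mRNA, with the loop in capitals. The search found 7 windows in 4 of the 10 genes. All are exonic: 4 in the 3′ untranslated region of TFRC, on the minus strand at chr3:196050980-196051006, chr3:196050576-196050602, chr3:196050511-196050537 and chr3:196050464-196050490, and 1 each in the 5′ untranslated regions of FTH1 (chr11:61967575-61967601, minus strand), FTL (chr19:48965336-48965362, plus strand) and SLC40A1 (chr2:189580662-189580688, minus strand).
TFRC 1: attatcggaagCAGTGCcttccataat
TFRC 2: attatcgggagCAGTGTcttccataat
TFRC 3: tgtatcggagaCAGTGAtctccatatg
TFRC 4: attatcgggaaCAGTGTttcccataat
FTH1: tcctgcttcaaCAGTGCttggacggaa
FTL: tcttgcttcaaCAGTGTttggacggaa
SLC40A1: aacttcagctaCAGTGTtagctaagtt
The same pattern was found in the 5′ untranslated region of 0.183% and in the 3′ untranslated region of 0.676% of 19669 protein-coding genes. A match is a description of the letters and not a measured binding site, and the lack of one in the other 6 genes says only that these letters are not there.

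Library totals ranged from 19963594 to 30348538 counts. The targeted gene SLC48A1 lay between 58.9 and 83.8 CPM (counts scaled to library size, with TMM factors) in the 6 WT libraries and between 2.94 and 10.1 in the 6 KO libraries. It was 12.4-fold lower in untreated and 8.43-fold lower in treated KO cells. Of the 6 erythroid markers examined (HBG1, HBG2, GATA1, KLF1, TAL1, EPOR) all were detected. The globin genes HBG1 and HBG2 summed to 4666 to 10295 CPM in WT and 1502 to 2717 in KO without butyrate, and to 14967 to 30527 in WT and 2135 to 3335 in KO with it. The other 4 summed to 530.2 to 705 CPM in WT and 382 to 419 in KO without butyrate, and to 379.8 to 1275 in WT and 318 to 695 in KO with it. Of 5 megakaryocyte markers 4 were detected (PF4 was at 0), and they summed to 29.05 to 57.8 CPM in WT and 5.40 to 20.2 in KO without butyrate, and 112 to 224 and 55.6 to 82.1 with it. Most of that sum was ITGA2B (means of 36.2 CPM in untreated WT and 11.9 in untreated KO). GP9 went the other way, at 0 in every WT library, 0.0476 to 0.334 CPM in untreated KO and 0.760 to 2.48 in treated KO. PPBP was seen in 1 library only, with 5 counts. Macrophage markers summed to at most 54.6 CPM and lymphoid ones to at most 24.2, with the defining genes C1QA and MS4A1 at 0 in every library. Of 4 fibroblast markers COL1A1 was at 1.62 to 4.65 CPM without butyrate and at 43.2 to 154 with it, while COL1A2 and DCN were at most 0.81 and 0.58 CPM in any library and LUM was at 0. The part of these markers in the results below was not tested. The libraries numbered 1 stood apart. On the second principal component, which held 20.9% of the variance, replicate 1 of treated WT (40.9) lay within the range of the untreated libraries (15.3 to 75.6) and replicate 1 of treated KO (4.21) lay between that range and the other treated libraries (-84.8 to -74.3). Within each group replicate 1 also carried the largest share of 28S ribosomal RNA (RNA28SN5, 2.30% to 5.63% of counts, and 0.673% to 2.86% in the other libraries). Log2 fold changes without the libraries numbered 1 are given below for each of the 10 genes, though not for every comparison.

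**Figure D1:**
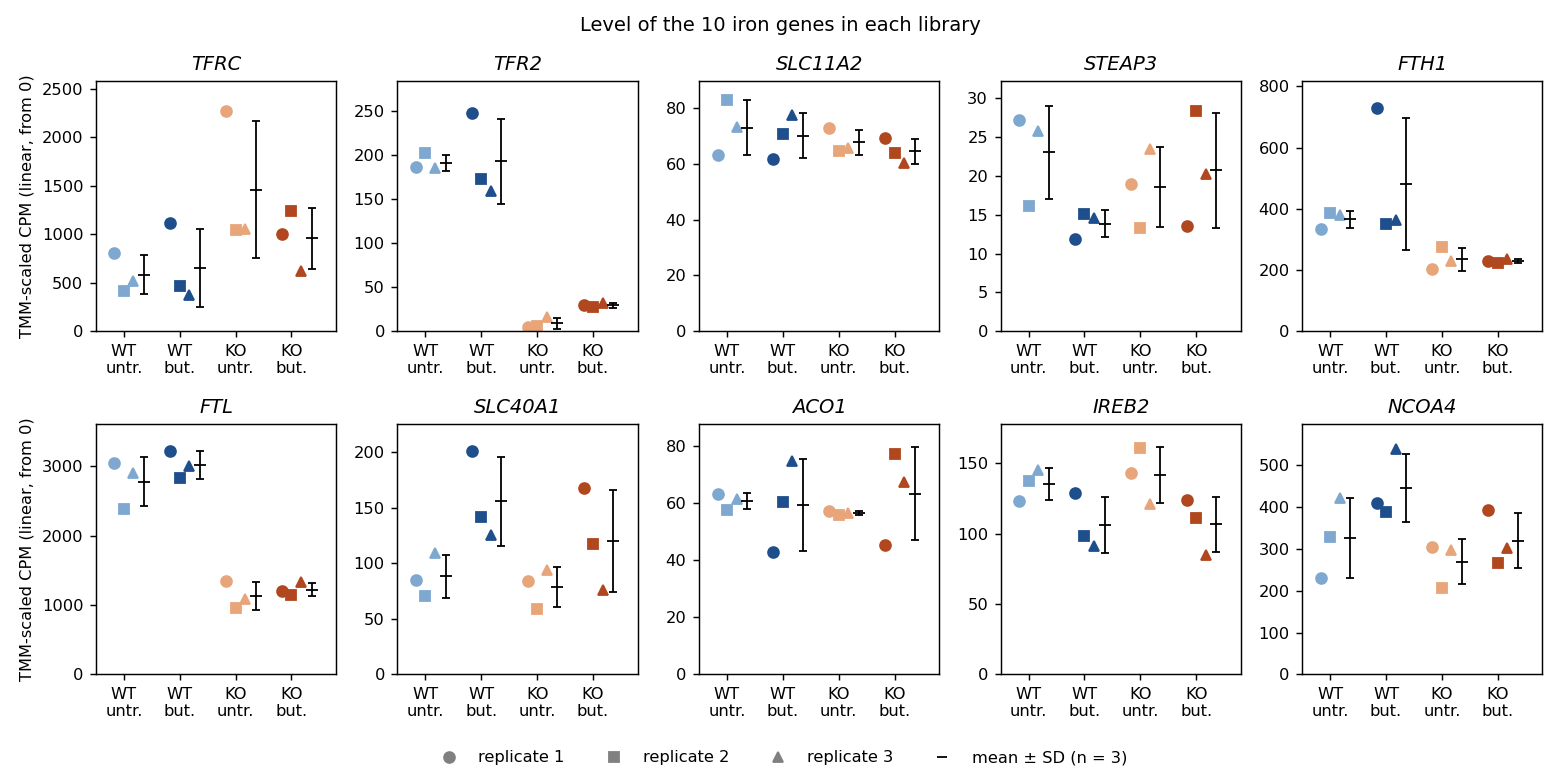
TMM-scaled CPM (vertical axis, linear from 0) of each of the 10 iron genes in the 12 libraries, with marker shape giving the replicate number and bars the mean ± SD of 3 libraries. TFR2, FTL and FTH1 sit lower in all 6 KO libraries than in any WT library, and the SLC11A2 groups overlap.

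In untreated cells TFR2 and FTL were lower in KO, and in treated cells TFR2, FTL and FTH1 were lower. TFRC was higher in every untreated KO library than in any untreated WT library, and whether that difference passed depended on the fit. Counted over the 10 genes, 0 were called higher and 2 lower in untreated KO cells, while 11.7% of all genes tested were called higher and 10.9% lower. In treated cells 0 were called higher and 3 lower, beside 10.1% and 8.89% of all genes. The other 6 genes (SLC11A2, STEAP3, NCOA4, SLC40A1, ACO1, IREB2) passed in no comparison. With so many genes different between the lines, these shares say little about iron genes as a set. The median log2 fold change of the 10 was -0.22 in untreated and -0.25 in treated cells, against 0.02 and 0.00 over all genes tested. Calls are from edgeR's quasi-likelihood test with Benjamini-Hochberg adjustment over all genes at 0.05, and the same adjusted p is meant throughout. Groups that did not overlap counted 1 higher (TFRC) and 4 lower (TFR2, FTH1, FTL, ACO1) in untreated cells, where 22.2% and 20.2% of all genes did so, 42.3% in all. In treated cells they counted 0 higher and 3 lower (TFR2, FTH1, FTL), beside 17.9% and 16% of all genes, 33.9% in all. In bulk RNA, fewer cells of a type and less RNA per cell cannot be told apart.

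Few of these genes passed the threshold with butyrate, and with 10 genes such counts say little about iron genes as a set. In WT, 0 of the 10 passed the threshold under edgeR and 0 under DESeq2, with 2 at an unadjusted p under 0.05 (STEAP3, SLC40A1), while 2.35% of all genes were called (1.8% higher, 0.55% lower). Non-overlapping groups counted 1 higher (SLC40A1) and 1 lower (STEAP3), beside 11.3% and 10.4% of all genes, 21.7% in all. In KO, 1 of the 10 was called, TFR2, which rose, beside 2.8% of all genes called higher, 0.595% lower and 3.4% in all. It was also the only one of the 10 whose groups did not overlap there, beside 12.6% of all genes that were higher without overlap, 11.8% lower and 24.4% in all. The median log2 fold change of the 10 was 0.07 in WT and 0.13 in KO, against 0.02 and 0.00 over all genes. The interaction, which asks whether the butyrate effect differed between KO and WT, called 0 of the 10 under edgeR and 0 under DESeq2, with 1 (TFR2) at an unadjusted p under 0.05, and 0% of all genes.

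**Figure D2:**
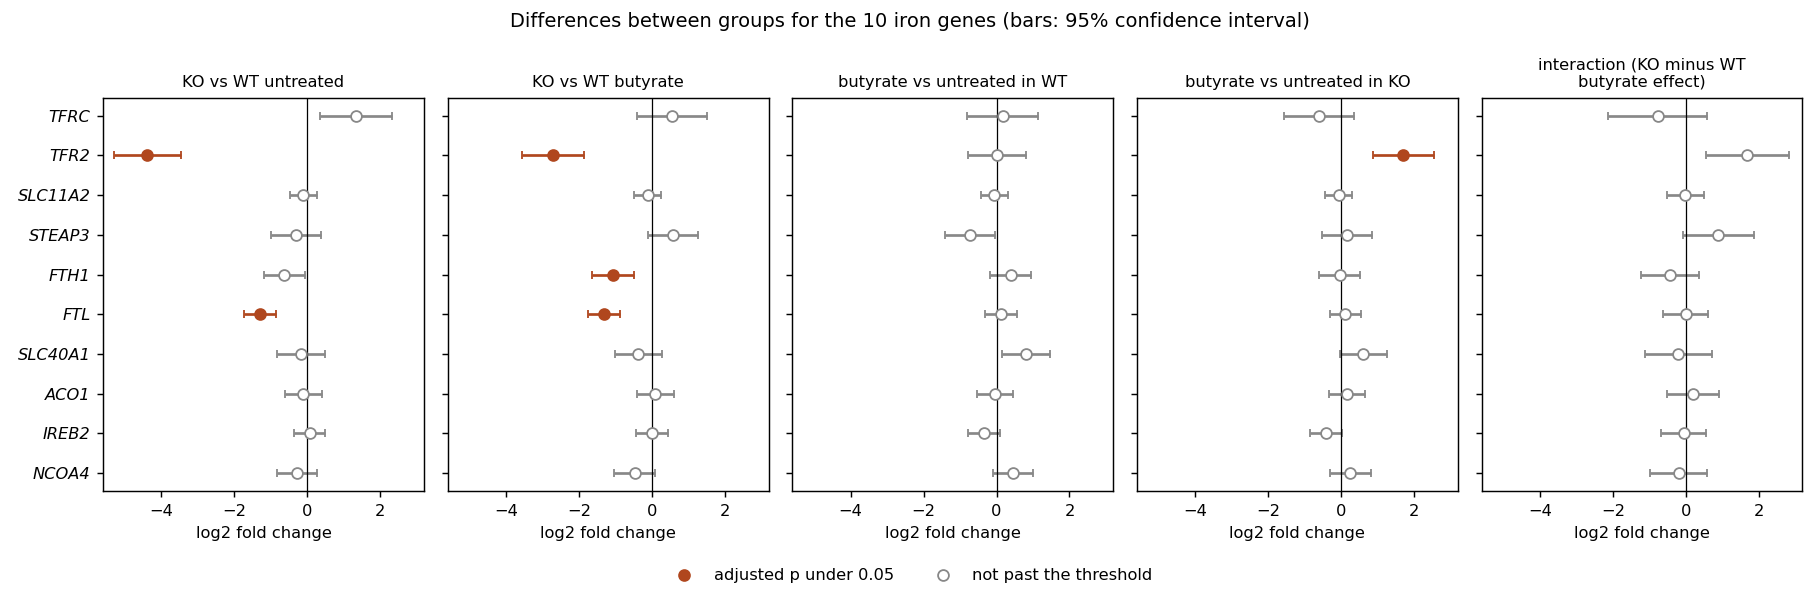
Log2 fold change (horizontal axis) of the 10 iron genes in the 4 comparisons and in the interaction, with 95% confidence intervals as bars and filled points where the adjusted p is under 0.05. TFR2, at -4.39 in untreated cells, lies farthest from 0, and the intervals of most other genes cross 0.

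TFRC lies on the minus strand of chromosome 3 (chr3:196027183-196082189, GRCh38). Its level in untreated WT was 806, 418 and 518 CPM in replicates 1, 2 and 3 (mean 581 ± 201 SD, n = 3). In untreated KO it was 2273, 1044 and 1054 CPM (1457 ± 706 SD, n = 3). All 3 untreated KO libraries were above all 3 untreated WT libraries, and replicate 1 was the highest of each group. The difference was 2.51-fold, with a log2 fold change of 1.33, SE 0.45 and a 95% interval of 0.34 to 2.31, and its adjusted p was 0.0526. With the replicate number as a block, an alternative fit, the log2 fold change was 1.27 and the adjusted p 0.00436. The call passed in 9 of 20 alternative settings. It passed without the libraries numbered 1 (1.14, adjusted p 0.0230), and without replicate 1 of untreated KO the log2 fold change was 0.85 and did not pass. In treated cells TFRC was 1113, 469.5 and 376 CPM in WT (653 ± 401 SD, n = 3) and 1006, 1243 and 621 CPM in KO (957 ± 314 SD, n = 3). These groups overlapped, with replicate 1 of treated WT above all but 1 of the treated KO libraries. The log2 fold change of 0.55 (interval -0.42 to 1.52) had an adjusted p of 0.447, and without the libraries numbered 1 it was 1.12 with an adjusted p of 0.0266. Butyrate gave 0.17 in WT and -0.61 in KO, and neither passed. The WT value turned to -0.46 without replicate 1 of treated WT and to -0.15 without the libraries numbered 1, and the KO value was then -0.17.

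TFR2, on the minus strand of chr7:100620416-100642779, encodes a relative of the transferrin receptor that binds transferrin weakly, senses its iron load and in red cell precursors associates with the erythropoietin receptor. It showed the largest genotype difference of the 10 genes. The level was 186, 202 and 186 CPM in untreated WT (191 ± 9.34 SD, n = 3) and 4.28, 6.37 and 16.5 CPM in untreated KO (9.05 ± 6.53 SD, n = 3). The WT libraries were close to each other and far above every KO library, and the raw counts behind the low KO values were 80, 134 and 493. TFR2 was 21.0-fold lower in untreated KO (log2 fold change -4.39, SE 0.43, adjusted p 1.78e-05). With butyrate the level was 249, 173 and 159 CPM in WT (193 ± 48.3 SD, n = 3) and 29.4, 27.1 and 32.6 CPM in KO (29.7 ± 2.77 SD, n = 3). The treated groups were again apart, by 6.51-fold (log2 fold change -2.70, SE 0.39, adjusted p 4.80e-04). Both calls passed in all 20 alternative settings, at -4.09 and -2.49 without the libraries numbered 1. Leaving out replicate 3 of untreated KO, its highest library, moved the untreated log2 fold change to -5.19.

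Within the KO line TFR2 rose 3.26-fold with butyrate (log2 fold change 1.70, SE 0.38, adjusted p 0.0332), and every treated KO library was above every untreated one. Treated KO cells still held less TFR2 mRNA than any WT library. In WT the same treatment gave a log2 fold change of 0.01 (interval -0.78 to 0.81). The difference between those 2 effects, the interaction, was 1.69 on the log2 scale (SE 0.53, unadjusted p 0.00731) and had an adjusted p of 0.756, ranging from 0.0588 to 1.00 over 19 alternative settings, so it did not pass. The rise in KO passed in 13 of 20 alternative settings and lost its call when the fit held only the KO groups (adjusted p 0.0807). It also lost it without any 1 of 6 libraries: replicate 1 or 2 of untreated KO (0.0959 and 0.163), replicate 2 or 3 of treated KO (0.107 and 0.0833), replicate 3 of untreated WT (0.0514) or replicate 2 of treated WT (0.0501). Without the libraries numbered 1 the rise was 1.36 on the log2 scale (adjusted p 0.0303), with -0.23 in WT, and without replicate 3 of untreated KO it was 2.49.

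Of the genes that hand iron on from the endosome, none passed in any comparison. STEAP3 (plus strand, chr2:119223831-119265652) was 27.2, 16.1 and 25.8 CPM in untreated WT and 11.9, 15.1 and 14.6 with butyrate. The treated WT libraries all lay below the untreated ones by a narrow gap. That log2 fold change was -0.73 (SE 0.32, interval -1.42 to -0.04), with an unadjusted p of 0.0394 and an adjusted p of 0.252. In KO the levels were 18.9, 13.3 and 23.5 CPM untreated and 13.5, 28.3 and 20.3 treated, which overlapped (0.16, adjusted p 0.834). These values were -0.51 in WT and 0.39 in KO without the libraries numbered 1, and neither passed. The genotype difference of STEAP3 was -0.31 in untreated and 0.58 in treated cells, and the interaction was 0.89, with no call. Without the libraries numbered 1 the genotype differences were -0.21 and 0.69. SLC11A2 (minus strand, chr12:50979401-51028566) was 63.2, 82.8 and 73.2 CPM in untreated WT (73.0 ± 9.81 SD, n = 3) and 72.9, 64.7 and 65.6 in untreated KO (67.7 ± 4.53 SD, n = 3). With butyrate it was 61.6, 70.8 and 77.7 CPM in WT (70.0 ± 8.07 SD, n = 3) and 69.4, 63.9 and 60.5 in KO (64.6 ± 4.49 SD, n = 3). The libraries of all 4 groups overlapped. The 95% intervals of its 4 log2 fold changes all lay between -0.48 and 0.30, so changes beyond that size were outside them. Its genotype differences were -0.28 and -0.27 and its butyrate differences -0.08 and -0.07 without the libraries numbered 1, with no call.

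FTL (plus strand, chr19:48965301-48966878) encodes the light ferritin chain, which helps iron settle in the mineral core. Its level was 3045, 2380.0 and 2905 CPM in untreated WT (2777 ± 351 SD, n = 3) and 1340.5, 955 and 1092 CPM in untreated KO (1129 ± 196 SD, n = 3). With butyrate it was 3216, 2825 and 3005 CPM in WT (3015 ± 196 SD, n = 3) and 1197, 1137 and 1328 CPM in KO (1221 ± 98.2 SD, n = 3). The lowest WT library was above the highest KO library in both treatments. FTL was 2.46-fold lower in untreated KO (log2 fold change -1.30, SE 0.20, adjusted p 5.85e-04) and 2.47-fold lower in treated KO (-1.30, SE 0.20, adjusted p 7.45e-04). Both calls passed in all 21 alternative settings, at -1.39 and -1.26 without the libraries numbered 1. Butyrate gave 0.12 in WT and 0.11 in KO, with intervals of -0.31 to 0.55 and -0.32 to 0.54, and the interaction was -0.01 (interval -0.61 to 0.60). The butyrate values were 0.13 and 0.26 without the libraries numbered 1.

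FTH1 (minus strand, chr11:61959718-61967660) encodes the ferritin chain that oxidises iron for storage. Its level was 335, 385 and 379 CPM in untreated WT (366 ± 27.3 SD, n = 3) and 202, 276 and 228 CPM in untreated KO (236 ± 37.6 SD, n = 3). The groups did not overlap, and the log2 fold change of -0.64 (SE 0.26, interval -1.20 to -0.07) had an adjusted p of 0.1003. With butyrate it was 729, 349.6 and 364 CPM in WT (481 ± 215 SD, n = 3) and 229, 223 and 235 CPM in KO (229 ± 5.95 SD, n = 3). Replicate 1 of treated WT was far above every other library. The treated difference was -1.07 (SE 0.26, adjusted p 0.0130), or 2.10-fold lower in KO. Without replicate 1 of treated WT it was -0.64 and still passed (adjusted p 0.0237), and the untreated difference, whose spread is estimated from all groups, then passed as well (-0.66, adjusted p 0.0103). The untreated difference also passed without the libraries numbered 1 (-0.62, adjusted p 0.0348) and with only the 2 untreated groups in the fit (adjusted p 0.0300). The treated one was -0.66 (adjusted p 0.0292) without the libraries numbered 1, and missed the threshold with only the 2 treated groups in the fit (adjusted p 0.0656). Butyrate gave 0.39 in WT, which turned to -0.10 without the libraries numbered 1, and -0.04 in KO. FTH1 and FTL have processed pseudogene copies, and how reads that match several copies were counted is not given in the sources used here, so the levels of both are uncertain. Adding the counts of FTH1P3 and FTLP10, the copies listed in the table, changed no call.

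NCOA4 (minus strand, chr10:46005088-46030714) did not pass in any comparison. It was 231, 328 and 422 CPM in WT and 304, 207 and 297 in KO without butyrate, and 411, 388 and 538 in WT and 392, 267 and 302 in KO with it. Each pair of groups compared overlapped. Its log2 fold change was -0.28 between the untreated lines, -0.48 between the treated lines, 0.45 with butyrate in WT and 0.25 with butyrate in KO, with adjusted p from 0.230 to 0.638. Without the libraries numbered 1 these were -0.59 (unadjusted p 0.0436, adjusted 0.116), -0.72 (unadjusted p 0.0186, adjusted 0.0661), 0.30 and 0.17. Leaving out 1 library gave -0.48 to -0.07 between the untreated lines, at the 2 ends without replicate 1 and without replicate 3 of untreated WT.

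SLC40A1 (minus strand, chr2:189560579-189583758) was 85.4, 71.0 and 109 CPM in untreated WT and 201, 141 and 125 CPM in treated WT. The treated WT libraries were all above the untreated ones. The log2 fold change was 0.82 (SE 0.30, interval 0.16 to 1.47), with an unadjusted p of 0.0184 and an adjusted p of 0.178, or 0.0779 with the replicate block. In KO it was 84.1, 58.5 and 93.8 CPM untreated and 168, 117 and 75.7 treated (0.61, interval -0.04 to 1.26, adjusted p 0.289). These KO groups overlapped through replicate 3. Same-numbered libraries of the 2 lines lay near each other in untreated cells, and the genotype differences were -0.17 and -0.37. Without the libraries numbered 1 the butyrate differences were 0.55 in WT (adjusted p 0.267) and 0.33 in KO, and the genotype differences -0.26 and -0.48.

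Neither sensor gene passed in any comparison. ACO1 (plus strand, chr9:32384603-32454769) was 63.2, 57.6 and 61.5 CPM in untreated WT and 57.3, 55.9 and 56.4 in untreated KO. The groups were narrowly apart, with a log2 fold change of -0.10 (interval -0.60 to 0.40). With butyrate it was 42.8, 60.3 and 74.8 CPM in WT and 45.3, 77.2 and 67.4 in KO, where replicate 1 was the lowest of both. Its butyrate log2 fold changes were -0.03 in WT and 0.16 in KO, and 0.17 and 0.36 without the libraries numbered 1, with no call. IREB2 (plus strand, chr15:78437431-78501456) was 123, 137 and 145 CPM in untreated WT and 143, 161 and 121 in untreated KO, and the groups overlapped. With butyrate it was 129, 97.9 and 91.4 CPM in WT and 124, 111 and 85.0 in KO. The butyrate log2 fold changes were -0.35 (interval -0.78 to 0.08) in WT and -0.41 (-0.84 to 0.02) in KO, with adjusted p of 0.395 and 0.282. Without the libraries numbered 1 they were -0.59 (unadjusted p 0.0180, adjusted 0.0958) and -0.53 (unadjusted p 0.0291, adjusted 0.12).

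To compare genes with each other, levels were divided by the length of all exons of the gene (CPM per kilobase, GENCODE v29). FTL was highest in all 4 groups, at 3163 in WT and 1286 in KO without butyrate, and 3434 in WT and 1390.1 in KO with it. FTH1 was next in WT and TFRC next in KO. In untreated WT FTH1 was at 226 ± 16.9 and TFRC at 109 ± 37.8 per kilobase, and in untreated KO FTH1 was at 146 ± 23.3 and TFRC at 274 ± 133 (SD, n = 3 each). Their ranges did not overlap in those groups, while in treated KO they did (117 to 233 for TFRC and 138 to 145 for FTH1). NCOA4 followed throughout, with group means from 66.0 to 109 per kilobase. TFR2 came after it in WT, at 61.1 in untreated and 61.7 in treated cells, and last in untreated KO at 2.89. In treated KO it was at 9.47, between IREB2 (11.2) and SLC11A2 (8.87). At the low end of untreated WT, SLC11A2 (10.0 ± 1.35) and ACO1 (8.04 ± 0.381) were neighbours whose ranges did not overlap, and STEAP3 was lowest at 5.05 ± 1.32.

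Ratios of counts within a library do not depend on how libraries are scaled. The ratio of TFRC to FTH1 was 2.41, 1.09 and 1.37 in untreated WT and 1.53, 1.34 and 1.03 in treated WT. It was 11.2, 3.78 and 4.62 in untreated KO and 4.39, 5.57 and 2.64 in treated KO. All 6 KO libraries were above all 6 WT libraries. Over both treatments the ratio was 3.45-fold higher in KO (log2 difference 1.78), with a two-sided exact permutation p of 0.005, the smallest that shuffling within treatments allows. Adjusted over the 24 ratio tests made, that permutation p became 0.06. For 3 against 3 libraries an exact test cannot go below 0.1, and the differences of 1.93 in untreated and 1.64 in treated cells each gave that value. They were 1.78 and 1.70 without the libraries numbered 1.

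The ratio of TFRC to TFR2 contrasts the 2 receptors. It was 4.32, 2.07 and 2.79 in untreated WT and 4.48, 2.72 and 2.37 in treated WT. In KO it was 531, 164 and 64.0 untreated and 34.2, 45.9 and 19.1 treated, so the 2 lines did not overlap. The log2 difference between lines was 4.63 over both treatments (exact permutation p 0.005, adjusted 0.06). Each treated KO library was below each untreated KO library, with a log2 difference of -2.51 (exact permutation p 0.1), or -1.79 without the libraries numbered 1. The ratio of FTH1 to FTL lay between 0.110 and 0.227 in WT and between 0.151 and 0.289 in KO, which overlapped (log2 difference 0.49, exact permutation p 0.05, adjusted 0.267), with 0.68 without the libraries numbered 1. For IREB2 to ACO1 the genotype difference was 0.04 (exact permutation p 0.86) and the butyrate difference over both lines was -0.42 (exact permutation p 0.145). Among the treated libraries replicate 1 had the highest ratio in each line, and the difference was -0.82 without the libraries numbered 1 (exact permutation p 0.0556, the smallest possible there).

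**Figure D3:**
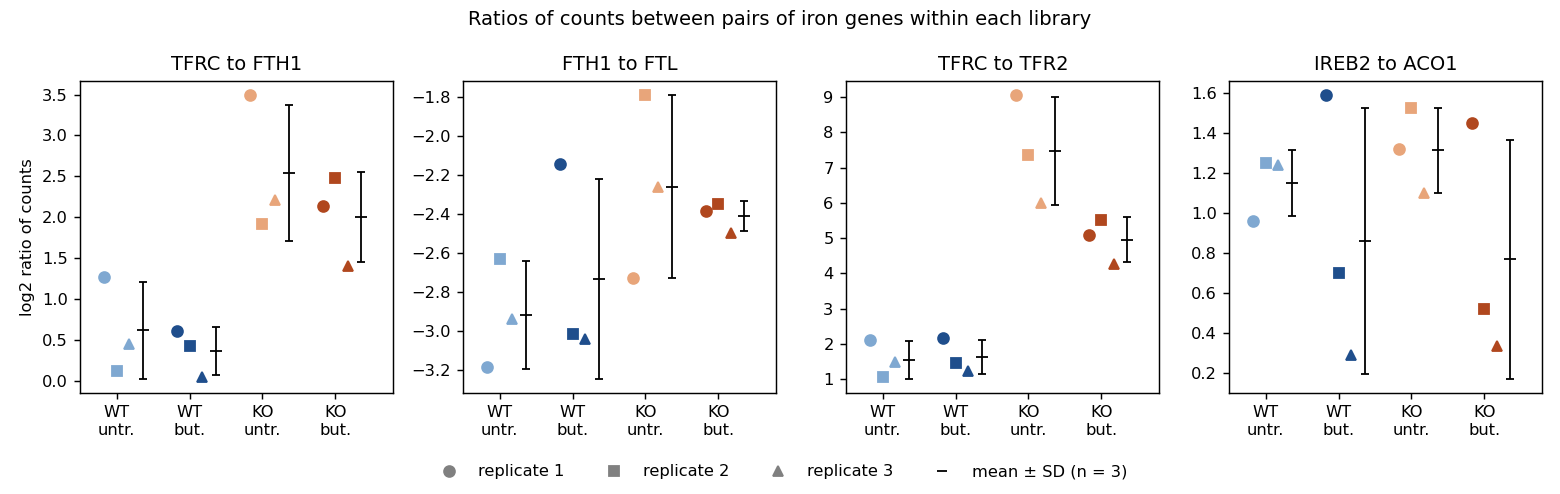
Log2 ratio of counts (vertical axis) between 4 pairs of iron genes in each library, with marker shape giving the replicate number and bars the mean ± SD of 3 libraries. In the TFRC to FTH1 and TFRC to TFR2 panels all 6 KO libraries sit above all 6 WT libraries.

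K562 is a line with an altered set of chromosomes, so the genotype difference of each gene was set beside that of the other tested genes on its chromosome. On chromosome 7, where TFR2 lies, the median log2 fold change of 715 other genes was -0.78 in untreated and -0.85 in treated cells, while over 14845 mapped genes it was 0.02 and 0.01. Of those chromosome 7 genes 37.5% were called lower in untreated and 38.7% in treated cells. The 101 tested genes that start within 2.5 Mb of TFR2 had a median of -1.22 in both. TFR2 itself, at -4.39 and -2.70, ranked 35 and 43 from the lowest on its chromosome. On chromosome 3, where TFRC lies, the median of 821 other genes was 0.45 in both treatments, and that of 52 genes within 2.5 Mb of TFRC was 0.66 in untreated and 0.67 in treated cells, beside 1.33 and 0.55 for TFRC. The medians around FTL were smaller, at -0.04 over chromosome 19 in untreated cells and -0.32 over the 165 genes within 2.5 Mb, beside -1.30 for FTL. Around FTH1 the medians were -0.12 over chromosome 11 and -0.07 over the 103 nearest genes, beside -0.64. A window of 0.25 Mb, chosen after the values were seen, gave other medians. The 10 tested genes so near FTH1 had a median of -1.21 in untreated and -0.66 in treated cells, with 8 and 9 below 0. The 6 nearest on its side of lower coordinates lay at -2.05 to -1.20 in untreated cells, all below FTH1, and at -1.65 to -0.50 in treated cells. The stop at 6 was also chosen after the values were seen. The next gene on that side lay at -0.43 in untreated and -0.28 in treated cells. In the same window the untreated median was -1.72 around TFR2 (20 of 20 below 0), 1.02 around TFRC (0 of 8 below 0) and -0.01 around FTL (14 of 28 below 0). Around SLC40A1 the 21 genes within 2.5 Mb had a median of 0.80 in untreated and 0.75 in treated cells. SLC40A1 itself was at -0.17 and -0.37. Around SLC11A2, STEAP3, NCOA4, ACO1 and IREB2 the medians within 2.5 Mb lay between -0.36 and 0.25. The number of chromosome copies in either line, and its part in any of these differences, was not tested.

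**Figure D4:**
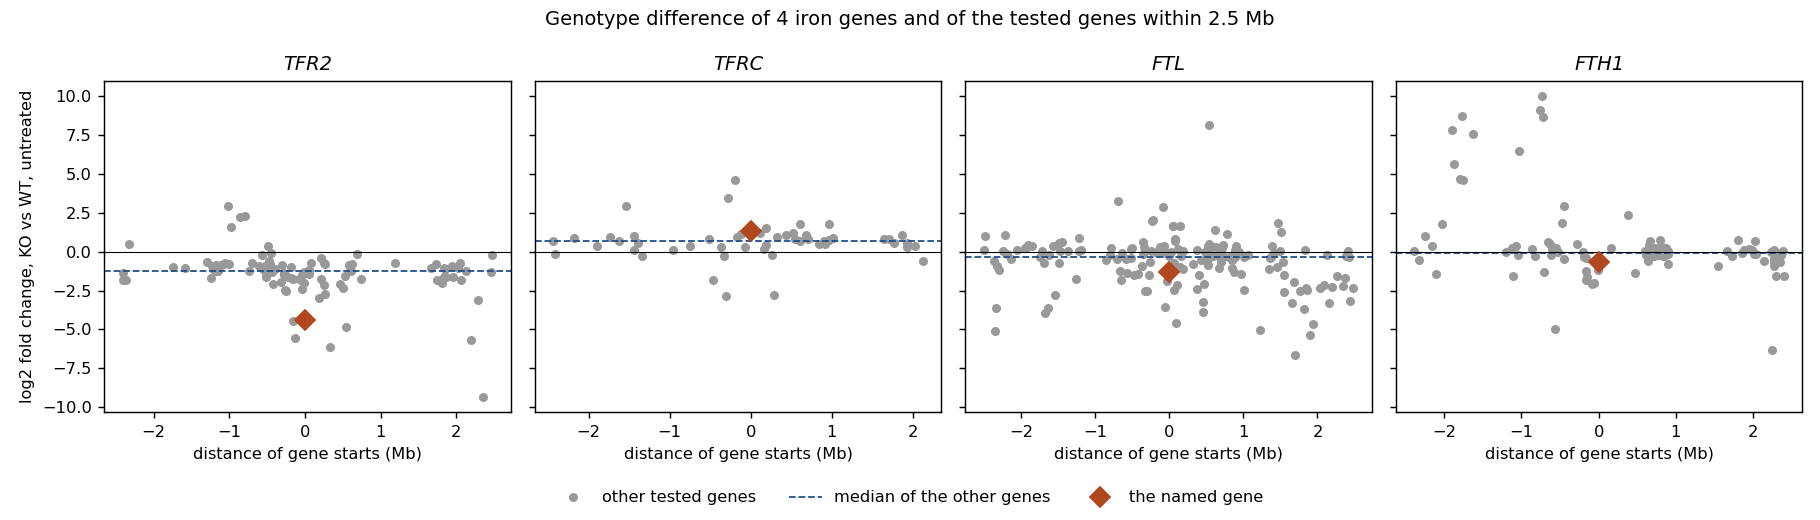
Log2 fold change of KO over WT in untreated cells (vertical axis) against distance between gene starts in Mb (horizontal axis) for TFR2, TFRC, FTL and FTH1 (diamonds) and the tested genes within 2.5 Mb (points), with the median of the other genes as a dashed line. That median is at -1.22 around TFR2, 0.66 around TFRC, -0.32 around FTL and -0.07 around FTH1.

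Other genes of iron handling, 52 in lists by role, were examined beside the 10, and 44 of them passed the filter on low counts. In untreated KO cells 5 of the 44 were higher than in WT and 0 lower, which is 11.4% of the 44, where 22.6% of all genes were called in either direction. TF, which encodes transferrin itself, was 1.68, 11.2 and 3.66 CPM in untreated WT and 51.7, 121 and 42.3 in untreated KO. The groups were far apart, by 13.0-fold (log2 fold change 3.70, SE 0.73, adjusted p 0.00297). Without replicate 2 of untreated WT the log2 fold change was 4.72 and without replicate 2 of untreated KO 3.06. SLC39A8, a ZIP family metal importer, was 38.1, 56.0 and 47.5 CPM in WT and 214, 146 and 149 in KO (3.59-fold, adjusted p 0.00205). ALAS2 makes the erythroid enzyme of the first step of heme synthesis and carries an iron-responsive element, found by the same search in its 5′ untranslated region (chrX:55030942-55030968, minus strand).
ALAS2: tcgttcgtcctCAGTGCagggcaacag
ALAS2 was 13.4, 18.5 and 40.2 CPM in untreated WT and 171, 164 and 207 in untreated KO (7.51-fold higher, adjusted p 1.16e-04). This mRNA, with the hairpin at its 5′ end, was higher in untreated KO, and that of FTL, with the hairpin at the same end, was lower. The calls of TF, SLC39A8 and ALAS2 passed in all 20 alternative settings. EPAS1 (log2 fold change 1.17, adjusted p 0.0460), an oxygen-regulated transcription factor gene with an iron-responsive element known in its mRNA, and ISCA2 (0.83, adjusted p 0.0392), an iron-sulfur cluster assembly gene, each passed in only 10 of 20 and not without the libraries numbered 1 (0.149 and 0.0833). EPAS1 lost its call without replicate 1 or 3 of untreated WT, 2 or 3 of treated WT, 1 or 2 of untreated KO or 2 of treated KO (adjusted p up to 0.168). ISCA2 lost it without any 1 library of either untreated group or replicate 2 of either treated group (up to 0.161).

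In treated cells 3 of the 44 genes, 6.82%, were higher in KO and 0 lower, beside 19% of all genes called in either direction. SLC39A14, another ZIP family importer that takes up iron not bound to transferrin, was 52.9, 34.1 and 42.8 CPM in treated WT and 87.1, 93.7 and 71.3 in treated KO. The groups did not overlap (log2 fold change 0.96, adjusted p 0.0154), and the call was lost without replicate 2 of treated WT (0.0700) or of treated KO (0.0612). MON1A, a vesicle trafficking factor (1.09, adjusted p 0.0336), and LYRM4, a partner of the cysteine desulfurase of cluster assembly (0.80, adjusted p 0.0252), passed in 15 and 16 of 20 settings. Both calls were lost without replicate 2 or 3 of treated WT, that of MON1A also without replicate 1 or 2 and that of LYRM4 without replicate 3 of treated KO (adjusted p up to 0.118). Butyrate in WT raised ALAS2 8.02-fold, to 254, 179 and 147 CPM (log2 fold change 3.00, adjusted p 0.00386, or 3.60 without replicate 3 of untreated WT), and lowered SLC39A14 2.33-fold from 124, 99.9 and 79.4 CPM (adjusted p 0.0259). These 2 of 44 are 4.55%. The SLC39A14 fall did not pass with only the WT groups in the fit (adjusted p 0.0936), nor without replicate 1 or 2 of untreated WT (0.109 and 0.0881) or replicate 2 or 3 of treated WT (0.122 and 0.0809). In KO butyrate called 0 of the 44 in edgeR and 3 in DESeq2, with 8 at an unadjusted p under 0.05. ALAS2 there was at 316, 288 and 266 CPM (1.60-fold, adjusted p 0.289). By role, none of the 4 tested storage and chaperone genes and none of the 5 export and systemic genes passed in any of the 5 comparisons. Of 18 iron-sulfur assembly genes 1 was called in untreated and 1 in treated cells, both higher in KO.

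**Figure D5:**
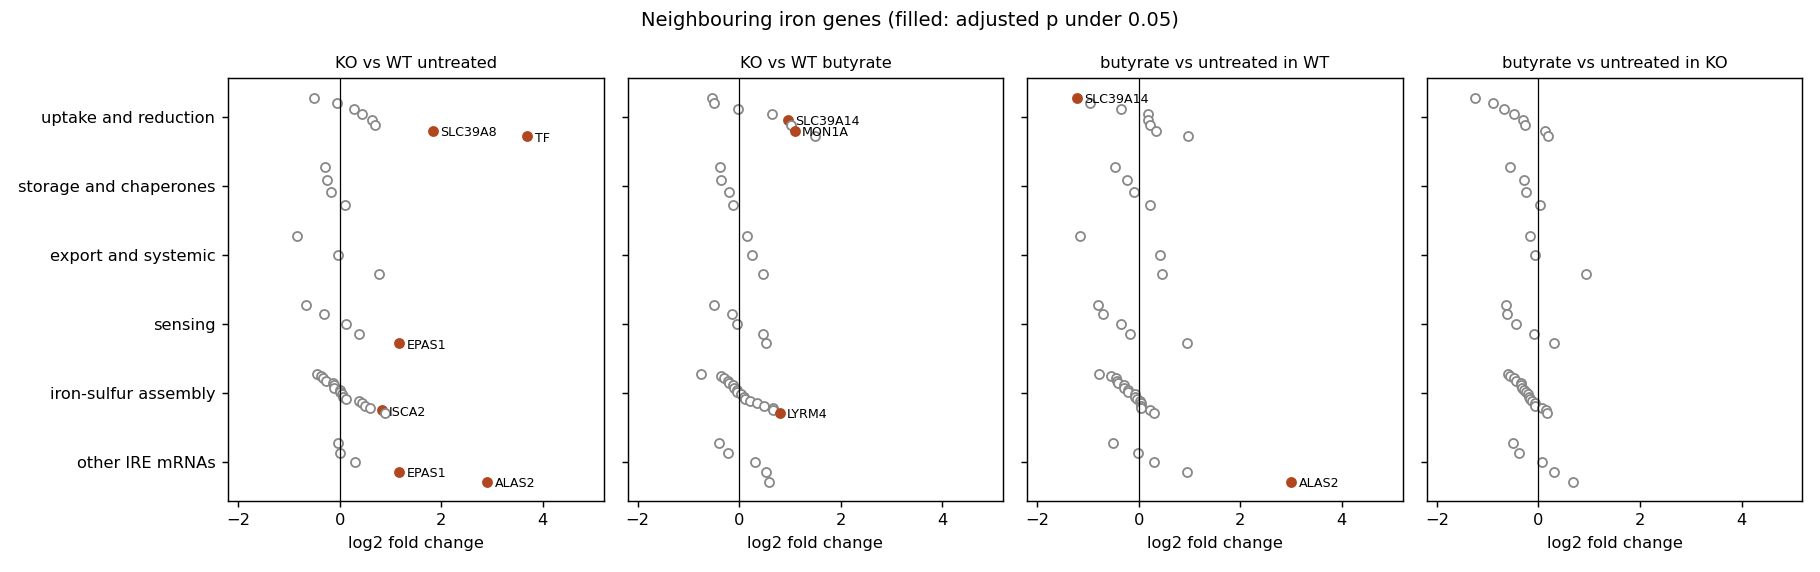
Log2 fold change (horizontal axis) of 42 other iron genes grouped by role, in 4 comparisons, with filled and named points where the adjusted p is under 0.05. EPAS1 is drawn under 2 roles, and TMPRSS6 and BMP6 are left out for their low counts; TF at 3.70 and ALAS2 at 2.91 lie farthest to the right in untreated cells.

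The genes whose pattern was most like that of each of the 10 were found by Pearson's r of log2 CPM over the 12 libraries, among 9724 genes of at least 10 CPM on average. The 12 points share their groups, so r mainly follows the group levels and is given as a description. FTL was most like MPC2 (r = 0.985), TFR2 most like CD53 (0.983), IREB2 most like MDM2 (0.977), FTH1 most like MED17 (0.952) and TFRC most like PPAT (0.950). For the others the closest genes were INAFM2 for SLC40A1 (0.932), EHD4 for ACO1 (0.928), ARMT1 for SLC11A2 (0.884), RAP1GAP for NCOA4 (0.859) and TARS3 for STEAP3 (0.821). Among the 10 themselves the gene closest to FTL was TFR2 (0.903), that closest to FTH1 was FTL (0.802) and that closest to SLC40A1 was NCOA4 (0.683). TFRC and TFR2 were the most opposed pair (-0.726).

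RefSeq promoter windows (GRCh38.p14, 250 bases before to 50 after the start) matched 8 of the 10 genes, in 13 windows, and were searched on both strands for 5 short motifs. GATAA, the core bound by GATA factors, was found for SLC11A2, STEAP3 and IREB2 and in 22.7% of 35116 windows. ACGTG, the core of hypoxia response elements, was found for TFRC and FTL and in 21.4% of windows. TGACNNNGC, the core of antioxidant response elements, was found for NCOA4 and in 13.3%. CACCC, a core bound by KLF factors, was found for TFRC, SLC11A2, STEAP3, SLC40A1 and NCOA4 and in 59.9%, and CACGTG, which contains ACGTG, for 0 of the 8 and in 7.26%. These motifs are common in promoters of all genes, and a match is not a site.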

How the data were processed

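RNA of 12 K562 libraries was sequenced, and the authors deposited 1 table of whole-number read counts per gene symbol, not normalized, per the file headers and the values. The submitters' processing notes name FastQC 0.12.1, STAR 2.7.11b and the build hg38; the counting tool, annotation, strand setting and read filters are not given in the sources used here, so overlapping, antisense and near-identical genes may share reads. Groups and replicate numbers came from the sample titles, and each column was matched to its sample by the labels' library name. All columns of the table were used.

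The deposited counts entered edgeR 4.0.16 under R 4.3.3 unchanged (filterByExpr with a minimum count of 10, TMM scaling, quasi-likelihood F-test with 1 mean per group over all 12 libraries, biological coefficient of variation 0.384). 5 contrasts were tested with Benjamini-Hochberg adjustment over 15805 genes and a threshold of 0.05. CPM are counts scaled to the TMM-adjusted library size. Before use the fit was run on simulated counts. They had less spread than these libraries and no replicate effect, so that run does not show how the fit performs here. Of 28278 genes 6319 had 0 counts in every library. No pair of replicates held the same counts (smallest chi-square per degree of freedom 40.0). Totals of 19963594 to 30348538 counts set the detection limit, 3 counts, at 0.0989 to 0.150 CPM, for counting error only. DESeq2 1.42.0 served as an alternative test. Ratios used two-sided exact permutation tests.

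Same-numbered libraries deviated together from their group means: the correlations over genes were 0.195 to 0.409 (butyrate in WT), 0.147 to 0.468 (butyrate in KO), 0.210 to 0.361 (KO against WT, untreated) and 0.315 to 0.595 (treated). All exceeded 0.1, so the numbers were taken to pair the libraries. Differently numbered libraries reached up to 0.186, 0.123, 0.0692 and 0.343 in the same comparisons, so a value over 0.1 does not by itself mark a pair. Between the treated lines that highest value was above the lowest same-numbered one (0.315), so the pairing is uncertain there. The block is an alternative fit.

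Transcripts and lengths came from GENCODE v29 (GRCh38), and promoter windows from RefSeq. The 10 genes and the lists were chosen with earlier results of these data known. Besides the 10 and SLC48A1, neighbouring genes were named where they passed the threshold, and for each of the 10 the gene of highest correlation. Alternatives were other scalings, filters and tests, the replicate block, fits of only the compared groups, and leaving out libraries; those for neighbouring genes were chosen after seeing the data. Some results for single genes are left out here.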

Additional observations from a re-analysis of the deposited data

How the results depend on the processing

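Of 1000 alternative values for the 10 genes, 979 kept their direction where called and their side of the threshold, 8 lost the call, 13 gained it and 0 reversed; the report names each gene concerned. The genes of the whole table called depended more on the fit. For butyrate in WT 372 genes became 1331 with DESeq2, 1361 with the replicate block, 61 with only the WT groups, 1902 without the libraries numbered 1, and 41 to 1256 leaving out 1 library. For butyrate in KO 537 became 304 with at least 10 counts in every library, 1538 with DESeq2, 1852 with the block, 2175 without the libraries numbered 1, and 49 to 1067 leaving out 1 library. For KO against WT 3574 became 2334 (untreated) and 3009 became 1947 (treated) with at least 10 counts in every library, and the treated count was 4612 with the block and 1832 with only the treated groups. The interaction called 2 without a filter, 1 with at least 10 counts in every library, 86 with DESeq2, 3 with the block, 9 without the libraries numbered 1, and 0 to 2 leaving out 1 library. The cause was not tested. Of the 10 iron genes, the fit of only the compared groups called 0 for butyrate in KO and 4 between the untreated lines, which were also 4 without the libraries numbered 1. Leaving out 1 library gave 0 to 1 and 2 to 4. The replicate block added the TFRC call between the untreated lines and changed no other call among the 10.

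Without the libraries numbered 1 the genotype log2 ratio of TFRC to FTH1 was 1.74 and that of TFRC to TFR2 was 4.48, each with an exact permutation p of 0.0556, the smallest that 2 against 2 in each treatment allows. Leaving out 1 library gave 0.37 to 0.64 for FTH1 to FTL between lines, -0.60 to -0.28 for IREB2 to ACO1 with butyrate and -1.59 to -0.83 for TFRC to TFR2 with butyrate. The median of all genes shifted by over 0.1 with library size alone, from 0.00 to 0.12 for butyrate in KO and from -0.02 to 0.09 for the interaction. The lowest count of the 10 genes in any library was 80, and 3 libraries a group limit every test.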
